A study of Homo sapiens with 12 samples.

Results

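The response of CAOV3 cells to ovarian cancer ascites was read from 6 RNA sequencing libraries, those labelled CAOV3, out of the 12 in the series. Members were chosen by their labels alone, as the 3 control and the 3 ascites libraries of this line. CAOV3 is an established human ovarian cancer line, labelled epithelial high grade serous and of genotype WT, and the other 6 libraries come from the clear cell line TOV21G. Both CAOV3 groups were seeded in DMEM (1.5 mL) with 10% fetal bovine serum and antibiotics. The ascites group also received 150 µL of ovarian cancer ascites, the protein-rich fluid that gathers in the abdomen of patients, and was kept with it for 16 h at 10%. The control group is labelled as receiving no treatment, and no vehicle is described for it. The labels do not say from how many people the ascites came, whether it was freed of cells, or whether the 3 libraries of a group came from separate cultures, so p-values measure only the spread between these libraries, which may be technical. The series' design text states the aim as finding transcriptional changes caused by the exposure.

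Ascites carries cytokines of the interleukin-6 (IL-6) family, growth factors, lipoproteins and plasma proteins. IL-6 family cytokines act through the shared receptor subunit IL6ST (gp130) and JAK kinases, which activate the transcription factor STAT3. In liver, where this path is best known, STAT3 raises the genes of acute-phase plasma proteins such as fibrinogen, and SOCS3 feeds back to stop the receptor. Cells control their own cholesterol and fatty acid synthesis through the SREBP factors, which are released when sterols are scarce and held in the endoplasmic reticulum by INSIG proteins when sterols are plentiful.

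The 6 libraries held 26697609 to 31046290 reads, and reads were found for 18356 to 18407 of the 19251 genes listed. Values below are normalised read counts, given in the order of replicates 1, 2 and 3 or as mean ± SD (n = 3 per group), and are not corrected for gene length. The control replicate 3 library stood apart. Its chi-square per degree of freedom against the other controls was 5.91 and 8.38, where the other pairs of replicates in a group gave 1.81 to 2.79, and its share of mitochondrially encoded reads was the highest, at 3.35% in a range of 2.48% to 3.35%. On the first principal component, with 32.7% of the variance, the controls lay at -13.41, -13.13 and -17.45 and the ascites libraries at 14.98, 14.79 and 14.23.

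Several defining markers went against the labelled cell type. PAX8 and WT1, the transcription factors by which high grade serous tumours are usually recognised, had mean values of 19.1 and 4.59 in the CAOV3 controls, against 7032 and 228 in the TOV21G controls. MUC16, which encodes the CA125 antigen, was at 12 and WFDC2, which encodes HE4, at 1.05. The serous list was not low throughout, since its 10 members analysed here summed to 6505 to 7587 in the CAOV3 controls. By contrast CDX2, CDH17, VIL1 and HNF4A, genes best known from digestive epithelium, had mean values of 259.8, 6257, 4289.7 and 2473 in the CAOV3 controls and of 0, 1.7, 1.55 and 19.1 in the TOV21G controls. These were picked from a longer list of such genes. In that list ANPEP and HNF4G were higher in the TOV21G controls (5422 and 84.7) than in the CAOV3 controls (351 and 54.2). Epithelial keratins were abundant, with KRT8 at 66468 in the CAOV3 controls, and so was VIM, a mesenchymal filament gene, at 127776. The name CAOV3 below is therefore the label of these libraries. None of the 4 tested genes of the serous list was called (0.20 for PAX8 and -0.43 for MUC16 on the log2 scale).

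Across the 15808 genes tested, 574 were higher in the ascites libraries (3.63%) and 721 were lower (4.56%), so that 8.19% were called in either direction at an adjusted p under 0.05. Fold changes are differences of log2(value + 1), a scale that shrinks the changes of weakly expressed genes. Most changes were small. Among the rises 29 genes were at 1 or more on the log2 scale, 33 between 0.5 and 1, 88 between 0.25 and 0.5, and 424 below 0.25, with a median of 0.18. Among the falls the same classes held 13, 85, 255 and 368 genes, with a median of -0.25. The share called grew with expression level, from 1.67% in the lowest of 4 equal classes by mean value to 14.5% in the highest. In 1276 of the 1295 called genes the 3 ascites libraries all lay on one side of the 3 controls. The same separation was seen in 26.2% of all genes tested, 12.4% with ascites above and 13.7% with ascites below. In RNA from a whole culture, a change in the number of cells of a kind and a change in RNA per cell cannot be told apart.

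**Figure D1:**
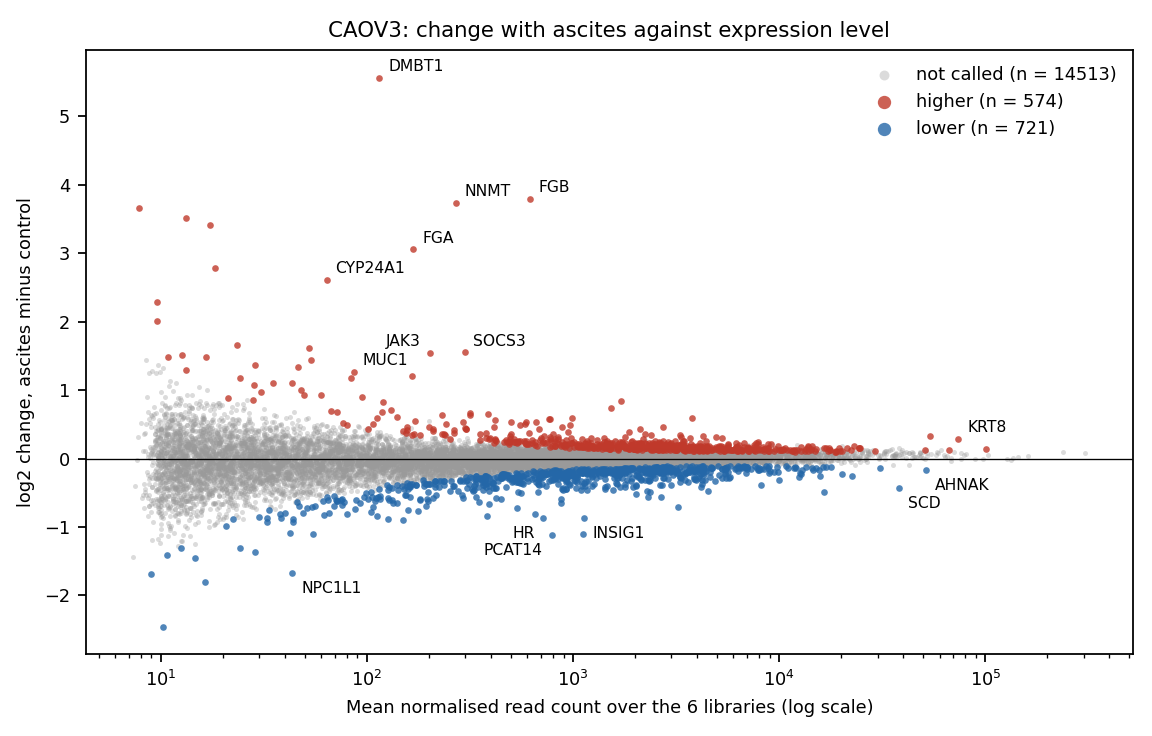
Change with ascites (log2, ascites minus control) against the mean normalised read count over the 6 CAOV3 libraries on a log axis, 1 point per gene tested. The 574 genes called higher are red, the 721 called lower blue and the rest grey; the largest rises, led by DMBT1 at 5.57, exceed the largest falls in size among the labelled genes, where NPC1L1 is at -1.68.

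The balance of rises and falls depended on scaling and on single libraries. Rises made up 44.3% of the calls as scaled by the authors, 30.3% (412 higher, 949 lower) when libraries were scaled by total reads, and 54.8% (864 higher, 713 lower) after a trend with transcript length and GC content was removed. Without control replicate 3 there were 821 rises and 698 falls. Rises numbered 345 without control replicate 1 and 317, 371 and 253 without ascites replicates 1, 2 and 3, and falls numbered 475 without ascites replicate 3. The genes called lower had long transcripts, with a median of 5349 bases in GENCODE 29 against 3228 for all genes tested, and the falls below 0.25 had a median of 6512 bases. For the genes called higher the median was 2744 bases.

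The largest rise among genes with a mean of at least 50 in the higher group was that of DMBT1 (ENSG00000187908, chromosome 10, positions 122560665 to 122643736), a secreted scavenger receptor of mucosal surfaces. Its normalised read counts were 4.54, 2.15 and 4.95 in the controls and 229.7, 175 and 272 in the ascites libraries. The mean rose from 3.88 ± 1.51 to 226 ± 48.8, which is 5.57 ± 0.26 (SE) on the log2 scale with an adjusted p of 1.08e-12. NNMT, which methylates nicotinamide (ENSG00000166741, chromosome 11, positions 114257787 to 114313285), had 27.2, 51.6 and 34.6 in the controls and 480.2, 461 and 569.9 with ascites, a log2 change of 3.74 ± 0.16 (adjusted p 2.17e-13). CYP24A1, the enzyme that breaks down active vitamin D, had 17, 12.9 and 22.8 in the controls and 112, 106 and 112 with ascites. Its log2 change was 2.61 ± 0.21 (adjusted p 1.39e-08). In all 3 genes every ascites library lay above every control, as the rule for naming them required.

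The other genes among the 12 largest rises were FGB and FGA (below), IL15RA, SOCS3, JAK3, DUOX2, SERPINA1, MUC1 and APOL1. IL15RA, the interleukin-15 receptor alpha chain, had 37.5, 25.8 and 15.8 in the controls and 84.2, 78.7 and 72.6 with ascites (log2 1.62 ± 0.24). APOL1, an apolipoprotein of plasma high density lipoprotein, had 116, 77.4 and 107 without and 224, 202 and 265 with ascites (log2 1.21 ± 0.14). MUC1, a membrane mucin, had 46.5, 48.4 and 55.4 without and 128, 109 and 129 with ascites (log2 1.27 ± 0.15). Control and ascites values of these genes did not overlap, as the rule for naming them required. At the other end of the level range, the most abundant genes called higher were the cytoskeletal genes ACTG1, KRT8 and KRT18 and the glycolytic enzyme gene ENO1. ACTG1 rose by 0.13 on the log2 scale, ENO1 by 0.12, KRT8 by 0.29 and KRT18 by 0.33. The calls of ACTG1 and ENO1 were lost in 5 alternatives each, among them leaving out control replicate 1 or any one ascites replicate. Those of KRT8 and KRT18 were kept in all 17. KRT8 and KRT18 overlap on opposite strands in GENCODE 29, and reads of one could be counted for the other where strand was not used.

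**Figure D2:**
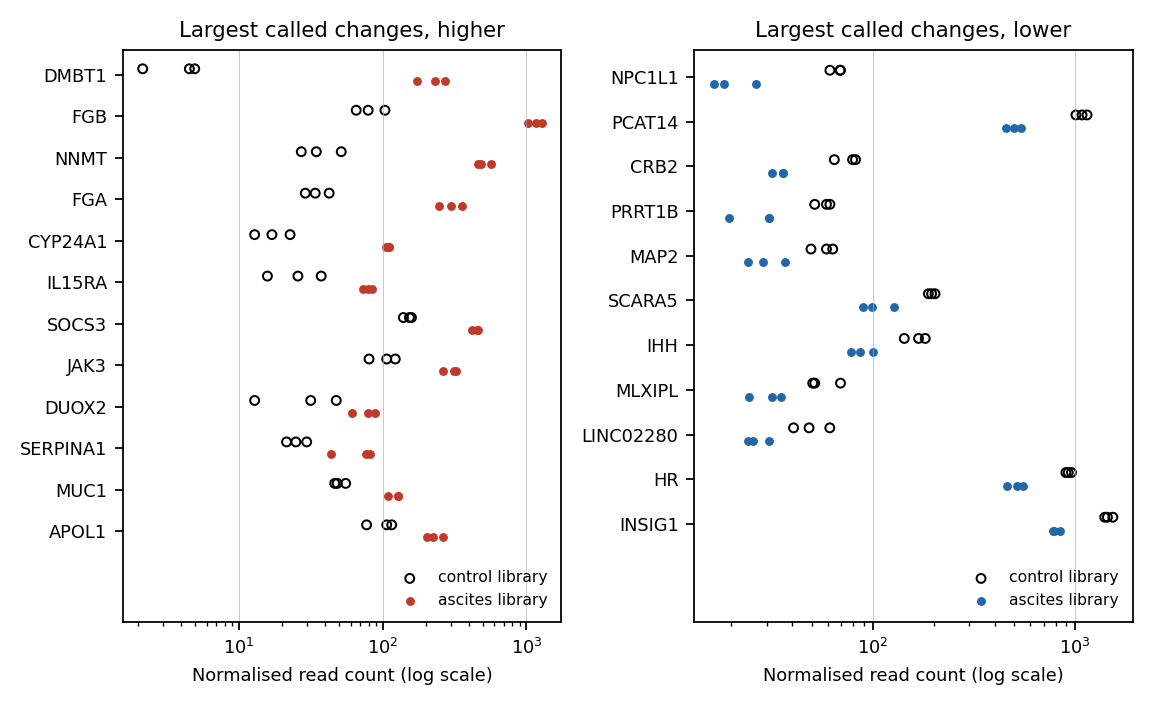
Normalised read counts (log axis) of the 12 largest called rises (left) and of genes among the 12 largest called falls (right), with 1 point per library, open for control and filled for ascites. In every gene shown the 3 ascites points lie on one side of the 3 control points, as the rule for naming them required. The means of DMBT1 are 3.88 and 226, and those of INSIG1 are 1460.0 and 801.

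Genes of acute-phase plasma proteins rose from low levels. Of 10 tested, 6 were higher and 0 lower, beside 3.63% and 4.56% of all genes tested, and the list's median log2 change was 1.42 beside -0.0038 for all genes tested. Of the 27 genes listed 14 were analysed here and 10 passed the filter, a value of at least 10 in 3 libraries. A gene below 10 in every control, such as LBP or AGT, could pass only through its ascites libraries. The filter thus favours rises, and neither the count nor the median is a result about the list. FGB and FGA, which encode the beta and alpha chains of fibrinogen and lie next to each other on chromosome 4, had the highest levels. FGB (ENSG00000171564, chromosome 4, positions 154562956 to 154571086) had 79.4, 65.6 and 104 in the controls and 1157, 1026 and 1275 in the ascites libraries. That is a log2 change of 3.80 ± 0.12 with an adjusted p of 2.38e-16. FGA (ENSG00000171560, chromosome 4, positions 154583126 to 154590766) had 34, 29 and 42.6 without and 301, 246 and 354 with ascites, a log2 change of 3.06 ± 0.16 (adjusted p 3.71e-12). FGG, the gamma chain gene of the same cluster, was at 0 in all 3 controls and at 23, 6.13 and 21.5 in the ascites libraries, and it did not pass the filter for testing.

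Their promoters are shown because these genes had the clearest change of the STAT3-linked group. The windows are the 250 bases before the RefSeq start of each gene (build GRCh38.p14), written along the gene's strand. Capitals mark matches to TTCNNNGAA, the palindrome bound by STAT factors, or to CTGGGAA, the core of the IL-6 response element described for fibrinogen genes. A stretch can hold both, since the shorter motif may lie inside the longer one.
FGB (chr4:154562730-154562979, plus strand): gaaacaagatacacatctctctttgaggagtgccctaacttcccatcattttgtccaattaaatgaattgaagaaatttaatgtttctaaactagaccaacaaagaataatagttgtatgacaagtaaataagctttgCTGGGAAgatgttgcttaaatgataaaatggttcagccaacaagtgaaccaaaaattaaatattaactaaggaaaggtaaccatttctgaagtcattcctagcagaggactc
FGA (chr4:154590743-154590992, minus strand): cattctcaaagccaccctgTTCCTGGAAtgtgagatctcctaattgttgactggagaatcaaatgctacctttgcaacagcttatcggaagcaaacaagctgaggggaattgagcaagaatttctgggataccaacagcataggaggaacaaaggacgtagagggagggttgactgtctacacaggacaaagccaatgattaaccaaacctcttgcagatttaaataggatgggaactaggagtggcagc
The FGB window holds CTGGGAA starting 112 bases before the start, and the FGA window holds TTCCTGGAA starting 231 bases before it. Match counts and shares were taken over whole promoter sequences, which may run past the start and so beyond the printed windows. Of the 6 risen acute-phase genes 5 had a promoter listed, of which 3 matched TTCNNNGAA and 2 matched CTGGGAA. Among all 27305 promoters 7.88% held TTCNNNGAA and 11% held CTGGGAA on either strand. Of 10 risen genes of the STAT3 list with a promoter, 1 held TTCNNNGAA and 1 held CTGGGAA. Of the 4 genes of that list with a promoter that were not called, 2 held TTCNNNGAA and 0 held CTGGGAA. A match describes the letters in the sequence and shows no binding.

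The other risen acute-phase genes were at low levels. SERPINA1, the alpha-1 antitrypsin gene, went from 25.4 ± 4.11 to 67.6 ± 20.6 (log2 1.34 ± 0.24). LBP, whose product carries bacterial lipopolysaccharide, had 5.67, 3.23 and 0 in the controls and 31.7, 26.6 and 36.8 with ascites (log2 3.41 ± 0.52). AGT, the angiotensinogen gene, had 4.54, 4.3 and 2.97 without and 38.3, 27.6 and 32.7 with ascites (log2 2.78 ± 0.35). LRG1 went from a mean of 6.57 to 18.7 (log2 1.51 ± 0.42, adjusted p 0.025). It was not called without control replicate 3 or ascites replicate 2 or 3 (adjusted p up to 0.152). DESeq2 gave no adjusted p for these 4 genes, as it sets aside genes with low counts, and it called FGB and FGA. CP, the ceruloplasmin gene, did not pass the test (4.94 and 13.2, log2 1.28 ± 0.41, adjusted p 0.0568), and neither did A2M (61.4 and 74.9).

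STAT3 itself and the genes of its feedback rose at moderate to high levels. Of 19 tested STAT3 early targets and feedback genes 13 were higher and 1 was lower, beside 3.63% and 4.56% of all genes tested. The median log2 change was 0.26, and all 13 remained called without control replicate 3. The count was 11 without control replicate 1 and 9 with all 12 libraries in 1 fit. SOCS3, the feedback inhibitor, had 159, 154 and 139.5 in the controls and 416, 456 and 461 with ascites, which is 1.55 ± 0.089 on the log2 scale (adjusted p 2.83e-11). STAT3 had 1809, 1757 and 1852 without and 2377, 2389 and 2525 with ascites (log2 0.43 ± 0.041, adjusted p 1.69e-07). Its libraries did not overlap between groups. SOCS2, a related inhibitor, rose by 1.10 and CEBPD, a transcription factor of the acute-phase response, by 0.71. JUNB, a subunit of AP-1, had 2289, 2486 and 2137 without and 3257, 3065 and 3179 with ascites (log2 0.46 ± 0.046). IRF1, BCL3, SBNO2, ZFP36, CEBPB, MCL1 and HIF1A rose by 0.53, 0.30, 0.26, 0.23, 0.22, 0.19 and 0.12. The kinase gene PIM1, also a STAT3 target, fell by 0.17 (adjusted p 0.0287), and that call was lost in 7 of the alternatives tried.

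Of 18 tested IL-6 family ligands, receptors and JAK kinases 4 were higher (2 without ascites replicate 3) and 1 lower. Among all genes tested these shares were 3.63% and 4.56%. JAK3, the kinase paired with the common gamma chain of cytokine receptors, had 80.6, 123 and 107 in the controls and 325, 264 and 315 with ascites (log2 1.55 ± 0.13, adjusted p 2.62e-08). IL6ST, the shared signalling receptor, went from 3109 ± 141 to 3702 ± 99.6 (log2 0.25 ± 0.039). The ligand gene IL11 rose by 0.27. IL6R, the IL-6 binding subunit, fell by 0.27 (adjusted p 0.0454), a call that 12 of the alternatives did not make. IL6 had a mean of 0 in the controls and 1.07 with ascites, too low to test. JAK1, JAK2 and TYK2 were not called, at log2 values of -0.07, -0.13 and -0.085, nor was the ligand gene LIF at 0.18 (adjusted p 0.154).

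**Figure D3:**
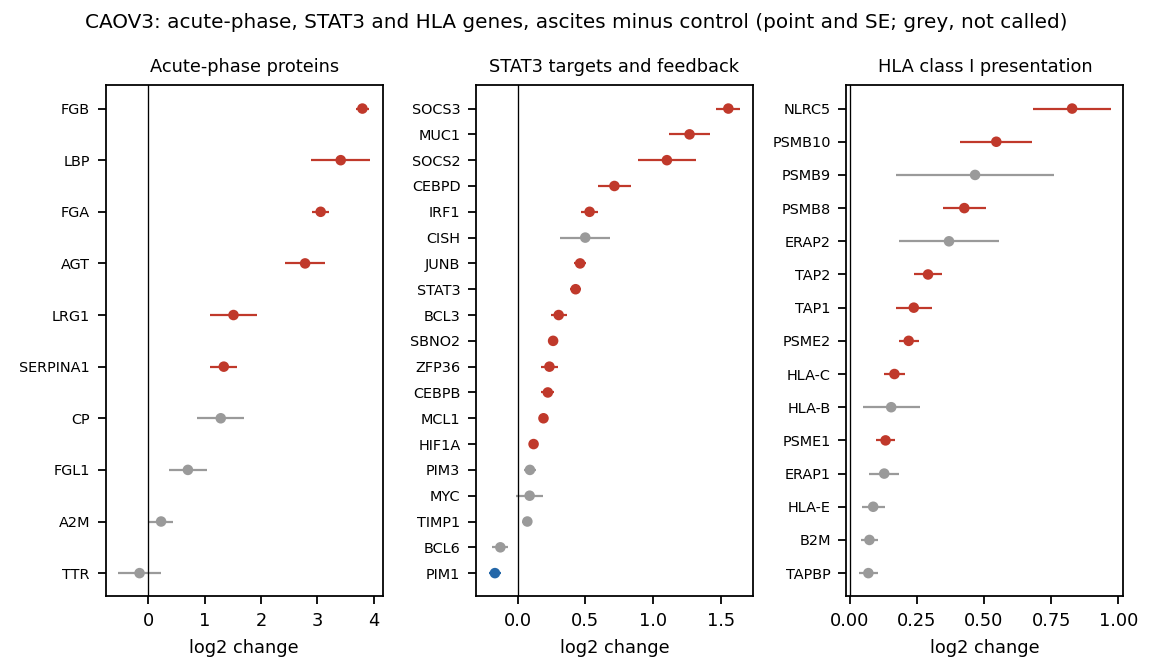
Log2 change (ascites minus control) with its standard error for the tested members of the acute-phase, STAT3 and HLA class I lists, red where called higher, blue where called lower and grey where not called. The 6 called acute-phase genes lie between 1.34 and 3.80; SOCS3 leads the STAT3 list at 1.55, PIM1 is its 1 call below 0, and NLRC5 leads the HLA list at 0.83.

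Genes of antigen presentation by HLA class I rose in part, mostly by small amounts. Of 16 tested, 8 were higher and 0 lower, beside 3.63% and 4.56% of all genes tested. All 16 estimates lay above 0 (median log2 change 0.19). NLRC5, the transcriptional activator of class I genes, had 68.1, 95.7 and 96 in the controls and 142, 147 and 169.8 with ascites (log2 0.83 ± 0.14, adjusted p 0.000513). The immunoproteasome subunits PSMB10 and PSMB8 rose by 0.55 and 0.43, the peptide transporters TAP2 and TAP1 by 0.29 and 0.24, and the proteasome activators PSME2 and PSME1 by 0.22 and 0.13. HLA-C rose by 0.17, while HLA-B (0.15, adjusted p 0.432) and B2M (0.074, adjusted p 0.155) were not called. HLA genes are near copies of each other, so the counting may have split their reads. The list had 5 such calls without ascites replicate 1 and 4 without ascites replicate 3, in place of 8.

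Interferon-stimulated genes rose in part. Of 37 tested, 8 were higher and 0 lower (median log2 change 0.07), beside 3.63% and 4.56% of all genes tested. IFITM3, a membrane protein that blocks virus entry, had 1265, 1119 and 1041 in the controls and 1955, 1859.8 and 1901 with ascites (log2 0.74 ± 0.055, adjusted p 2.54e-09). Its close relatives IFITM1 and IFITM2, with which it may share reads, rose by 0.91 and 0.58. The partners PARP9 and DTX3L rose by 0.66 and 0.46, ISG15 by 0.29, PLSCR1 by 0.24 and TRIM25 by 0.16. Of 25 tested NF-kB feedback and survival genes 6 were higher and 0 lower. ICAM1, an adhesion receptor for leukocytes, went from 51 ± 6.31 to 116 ± 15 (log2 1.18 ± 0.16), and the others, NFKBIZ, TNIP2, NFKBIB, NFKB2 and RELA, rose by 0.13 to 0.23. That count was 3 without control replicate 1, 2 without ascites replicate 1 or 3, and 2 with scaling by total reads. Of 14 tested chemokines and cytokines 1 was higher (CSF1, log2 0.41) and 1 lower (CX3CL1, log2 -0.41). These counts are near the shares of all genes tested, 3.63% and 4.56%, and are no result about the group. CSF1 was not called by DESeq2, nor without control replicate 1 or 3 or ascites replicate 2 or 3.

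Complement genes moved in part. Of 11 tested complement genes and regulators 3 were higher and 1 lower, beside 3.63% and 4.56% of all genes tested. CFI and C3 were below 10 in every control and passed the filter through their ascites libraries alone. The filter thus favours rises here, and the count is no result about the list. CFI, a protease that inactivates complement, had 4.54, 1.08 and 0 in the controls and 24.1, 26.6 and 23.5 with ascites (log2 3.51 ± 0.53, adjusted p 9.78e-05). C3, the central complement protein, had 4.54, 1.08 and 4.95 without and 17.5, 12.3 and 17.4 with ascites (log2 2.02 ± 0.47, adjusted p 0.00794), and it was not called without ascites replicate 3 (adjusted p 0.0574). CD59 rose by 0.16 and CLU fell by 0.16. In the tissue factor and plasminogen system 5 of 14 tested genes were higher and 3 lower, beside the same 3.63% and 4.56%. PROS1, the anticoagulant protein S gene, had 251, 234 and 258 without and 393, 332 and 434 with ascites (log2 0.63 ± 0.092). The urokinase gene PLAU and its receptor PLAUR rose by 0.42 and 0.23. PROCR rose by 0.17, and the thrombin receptor F2R, the related F2RL1 and the inhibitor TFPI fell by 0.15, 0.13 and 0.16.

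Mucosal defence genes moved both ways. Of 15 tested genes of this list 3 were higher and 2 lower, beside 3.63% and 4.56% of all genes tested. DMBT1 was below 10 in every control and passed the filter through its ascites libraries alone. The risen genes were DMBT1 and the pair DUOX2 and DUOXA2, which make hydrogen peroxide at mucosal surfaces and lie side by side on opposite strands. DUOX2 had 47.7, 12.9 and 31.7 in the controls and 78.8, 61.3 and 89 with ascites (log2 1.45 ± 0.30). DUOXA2 had 11.3, 7.53 and 12.9 without and 23, 39.9 and 46 with ascites (log2 1.66 ± 0.32). AGR2, a folding enzyme of mucus-secreting cells, fell from 13677 ± 386 to 11399 ± 338 (log2 -0.26 ± 0.033), and REG4 fell by 0.69. The mucins MUC13 and MUC5B (0.044 and 0.076) and the trefoil factors TFF1 and TFF3 (-0.083 and -0.019) were not called.

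Among genes with a mean of at least 50 in the higher group, the largest fall was that of NPC1L1 (ENSG00000015520, chromosome 7, positions 44512535 to 44541315), the transporter that takes up cholesterol from the gut. It had 69.2, 68.8 and 61.4 in the controls and 16.4, 18.4 and 26.6 in the ascites libraries (log2 -1.68 ± 0.22, adjusted p 2.15e-05). HR, a corepressor of nuclear receptors, had 900.0, 924 and 959 without and 515, 462 and 551 with ascites (log2 -0.87 ± 0.063). Both genes were lower in every ascites library than in any control, as the rule for naming them required. The long non-coding RNA gene PCAT14 fell from 1079 ± 68.1 to 499 ± 44.7 (log2 -1.11 ± 0.065), and the non-coding LINC02280 fell by 0.87.

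Other protein-coding genes among the 12 largest falls, beside INSIG1, spanned several functions. CRB2, a polarity protein, fell by 1.10, PRRT1B by 1.09 and the microtubule protein MAP2 by 0.93. SCARA5, a ferritin receptor, had 195, 188 and 203 in the controls and 99.5, 89 and 127 with ascites (log2 -0.90 ± 0.13). IHH, a hedgehog ligand, fell by 0.89, and MLXIPL, the glucose-sensing factor ChREBP that drives lipid synthesis, by 0.89. The most abundant genes called lower were AHNAK (-0.17), SCD (-0.43), DYNC1H1 (-0.13) and DKK1 (-0.25). Of these AHNAK and DYNC1H1 encode very large proteins, SCD a fatty acid desaturase and DKK1 a secreted WNT inhibitor.

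The genes of cholesterol synthesis fell along most of the pathway. Of 22 tested, 14 were lower and 0 higher, beside 4.56% of all genes tested, and 21 of the 22 estimates lay below 0 (median log2 change -0.22). All 14 were lower without control replicate 3 too. The count was 13 without ascites replicate 2 and 9 with all 12 libraries in 1 fit. The summed values of the 22 genes were 63779 to 65846 in the controls and 54024 to 55510 with ascites. HMGCS1, which makes the first dedicated intermediate, had 9295, 8989 and 9492 in the controls and 7187, 6953 and 7147 with ascites (log2 -0.38 ± 0.033, adjusted p 3.08e-08). MVK, the mevalonate kinase, fell the most of the list, from 535 ± 31.3 to 355 ± 28.1 (log2 -0.59 ± 0.074).

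Further down the pathway IDI1 fell by 0.48, MVD by 0.25, FDFT1 by 0.28, SQLE by 0.39 and LSS by 0.34 on the log2 scale. Of the enzymes that finish the sterol rings, MSMO1 fell by 0.45, TM7SF2 by 0.27, DHCR7 by 0.22 and SC5D by 0.22. ACAT2, which supplies acetoacetyl-CoA, fell by 0.23. The 8 genes not called were FDPS, GGPS1, CYP51A1, NSDHL, HSD17B7, EBP, LBR and PMVK. PMVK was the 1 gene with an estimate above 0 (0.12, adjusted p 0.24), and the branch gene FDPS was at -0.075 (adjusted p 0.219).

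The controllers of the pathway fell in part. Of 21 tested genes of SREBP control and sterol uptake 9 were lower and 0 higher (median log2 change -0.16). Among all genes tested 4.56% were lower and 3.63% higher. INSIG1, which holds SREBP back and is itself an SREBP target (ENSG00000186480, chromosome 7, positions 155297776 to 155310235), had 1444, 1400.5 and 1536 in the controls and 839, 785 and 779 with ascites. Its log2 change was -0.86 ± 0.051, with an adjusted p of 3.81e-11. STARD4, a carrier of cholesterol inside the cell, had 641, 592 and 760.1 without and 409, 395 and 397 with ascites (log2 -0.72 ± 0.076). For both genes the groups did not overlap, which the rule for naming the largest falls required of INSIG1.

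The SREBP genes themselves, SREBF2 and SREBF1, fell by 0.34 and 0.32, the endothelial-type lipase LIPG by 0.45, LPIN1 by 0.29 and the lysosomal lipase LIPA by 0.15. The escort gene SCAP (-0.081), the proteases MBTPS1 (-0.044) and MBTPS2 (-0.10) and INSIG2 (-0.16) were not called. Nor were the sterol exporters ABCA1 (-0.072, adjusted p 0.559) and ABCG1 (-0.45, adjusted p 0.0605), which are known targets of the oxysterol receptors LXR.

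Promoters of a pathway gene and a sterol carrier that fell are shown with CCAAT, the site of NF-Y, a partner of SREBP, in capitals on either strand (ATTGG on the reverse). Windows are again the 250 bases before the RefSeq start in GRCh38.p14.
HMGCS1 (chr5:43313413-43313662, minus strand): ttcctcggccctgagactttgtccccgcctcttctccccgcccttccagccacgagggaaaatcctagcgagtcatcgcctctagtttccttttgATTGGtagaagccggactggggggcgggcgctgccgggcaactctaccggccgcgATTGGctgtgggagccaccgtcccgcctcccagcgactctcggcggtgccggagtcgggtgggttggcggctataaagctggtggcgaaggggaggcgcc
STARD4 (chr5:111512536-111512785, minus strand): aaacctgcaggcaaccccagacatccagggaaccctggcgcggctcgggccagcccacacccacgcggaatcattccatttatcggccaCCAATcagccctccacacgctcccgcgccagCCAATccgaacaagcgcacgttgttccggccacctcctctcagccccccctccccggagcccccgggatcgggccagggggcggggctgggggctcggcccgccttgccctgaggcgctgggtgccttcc
The counts that follow again cover whole promoter sequences, which may extend beyond the printed windows. Of the 14 fallen cholesterol synthesis genes 9 had a promoter listed. Of those 9, 8 held CCAAT, beside 35.7% of all 27305 promoters. Of the 8 genes of the list that were not called, all had a promoter and 4 held CCAAT. In the fatty acid synthesis list 2 of 7 fallen genes with a promoter held CCAAT and 8 of 14 that were not called, and in the SREBP control list 4 of 7 and 2 of 10. The SREBP motif TCACNCCAC was held by 1.15% of all promoters and by 0 of the 9 of fallen cholesterol synthesis genes. It was in 1 of the 7 available promoters of the fallen SREBP control genes, that of SREBF2. SREBP binds varied sites, and these letters cover only one form.

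**Figure D4:**
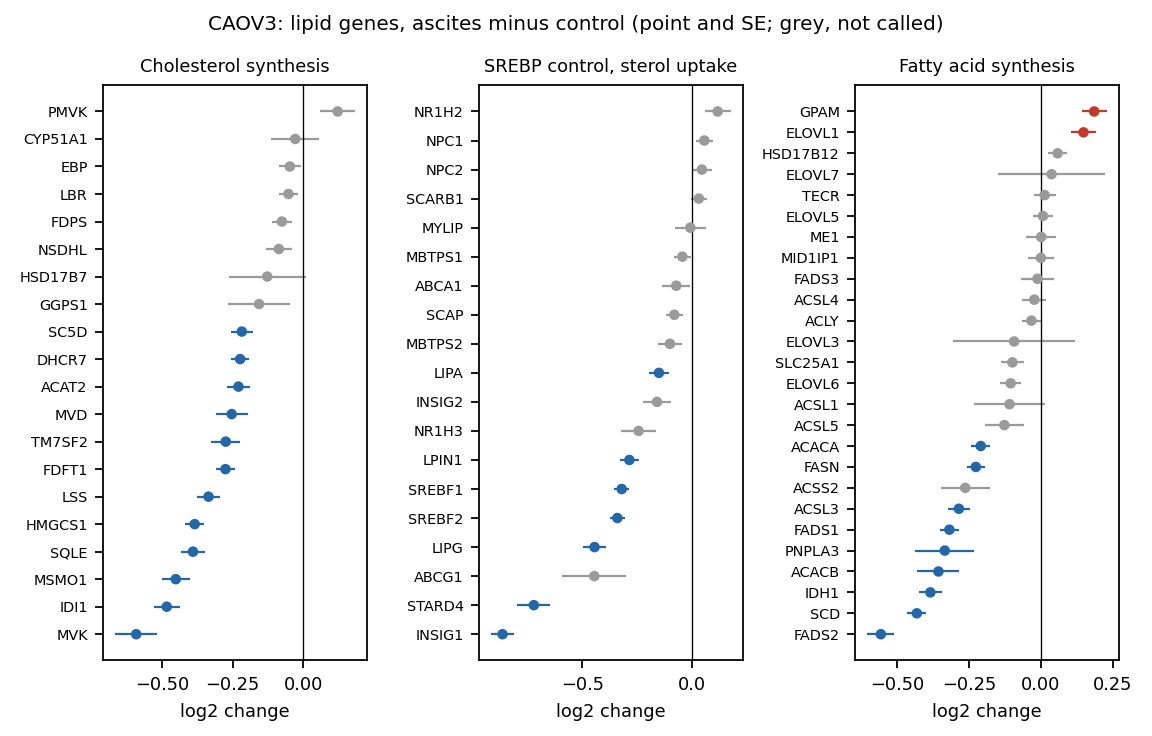
Log2 change (ascites minus control) with its standard error for tested genes of cholesterol synthesis, of SREBP control and sterol uptake, and of fatty acid synthesis, blue where called lower, red where called higher and grey where not called. The called falls reach -0.59 for MVK in the first panel and -0.86 for INSIG1 in the second; GPAM and ELOVL1 are the 2 rises.

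Fatty acid synthesis moved the same way at its central enzymes. Of 26 tested genes 9 were lower and 2 higher (median log2 change -0.10), beside 4.56% and 3.63% of all genes tested. SCD, which makes monounsaturated fatty acids, had 43713, 42182 and 45139.6 in the controls and 32248, 31979 and 32970.0 with ascites (log2 -0.43 ± 0.033, adjusted p 5.21e-09). The polyunsaturated desaturases FADS2 and FADS1 fell by 0.56 and 0.32, fatty acid synthase FASN by 0.23 and the carboxylases ACACB and ACACA by 0.36 and 0.21. IDH1, a source of NADPH, fell by 0.38, the acyl-CoA synthetase ACSL3 by 0.28 and PNPLA3 by 0.33. GPAM and ELOVL1 rose by 0.18 and 0.15. ACLY (-0.033) and ELOVL6 (-0.10) were not called.

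Of 28 tested genes of fatty acid oxidation and PPAR targets 2 were higher and 2 lower, beside 3.63% and 4.56% of all genes tested. These counts are near those shares and are no result about the list. ANGPTL4, an inhibitor of lipoprotein lipase, went from 803 ± 38.2 to 1132 ± 24.3 (log2 0.50 ± 0.051), and the lipid droplet coat PLIN2 rose by 0.18. The fatty acid carrier FABP1 was among the falls (log2 -0.56), a call lost without control replicate 3 or ascites replicate 2. CPT1A, the gate of mitochondrial fatty acid uptake, was not called (8084 and 7935, log2 -0.027), nor was PDK4 (log2 -0.10).

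Iron, xenobiotic and hormone-linked groups showed single large members. Their counts stand beside 4.56% lower and 3.63% higher among all genes tested. TFRC, the transferrin receptor, had 18863, 18713 and 20081 in the controls and 13752, 13748 and 13499 with ascites (log2 -0.49 ± 0.033, adjusted p 5.02e-10). With SLC11A2 (log2 -0.23) it made 2 falls among 10 tested genes of iron handling. Of 25 tested NRF2 targets 4 were lower, the reductases AKR1C1, AKR1C3 and AKR1B10 and the exporter ABCC3, by 0.30 to 0.46. AKR1C1 and AKR1C3 are close paralogues that may share reads. Of 7 tested aryl hydrocarbon receptor genes 2 were lower, the receptor AHR by 0.28 and CYP1A1 by 0.36. The CYP1A1 call was lost in 8 alternatives, among them leaving out any one CAOV3 library other than control replicate 1. Of 10 tested glucocorticoid response genes 3 were lower, KLF9 by 0.28, TSC22D3 by 0.28 and GLUL by 0.16. The list of retinoid and vitamin D response genes had 2 rises and 3 falls among 17. TGM2, a transglutaminase, had 3052, 2935 and 3067 without and 4615, 4309 and 4774 with ascites (log2 0.60 ± 0.039) and rose with CYP24A1. HR, DHRS3 and THRA fell, the last 2 by 0.21 and 0.18. Of 11 metallothionein and zinc transport genes 1 rose, MT2A by 0.20, a count that is no result about the list.

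BMP response genes fell in part. Of 22 tested, 7 were lower and 0 higher (median log2 change -0.11), beside 4.56% and 3.63% of all genes tested. ID3 and ID2, direct targets of BMP receptors, had 3911, 3969 and 3688 and 2029, 1984 and 2065 in the controls and 3163, 3032 and 3101 and 1561, 1646 and 1668 with ascites, log2 changes of -0.32 ± 0.037 and -0.32 ± 0.042. ATOH8 fell by 0.56, MSX2 by 0.21, the inhibitor SMAD6 by 0.16 and the receptors BMPR2 and BMPR1B by 0.19 and 0.18. The BMPR1B call was lost in 10 alternatives, among them leaving out any one CAOV3 library other than control replicate 1. ID1 (-0.038), SMAD7 (-0.021) and the ligand genes BMP2 (-0.06) and BMP4 (0.23) were not called. The related TGF-beta list had 6 falls and 3 rises among 26. CCN2, CDKN2B, SKIL, TGFBR1, ITGAV and FN1 fell by 0.13 to 0.30, while TAGLN, BHLHE40 and TGFBI rose by 0.10 to 0.35. Its falls numbered 3 without ascites replicate 2, and its rises numbered 1 without control replicate 1 or any one ascites replicate.

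EGF receptor ligands and the ERK pathway moved both ways. The counts of this paragraph stand beside 3.63% higher and 4.56% lower among all genes tested. Of 11 tested EGF family genes 2 were higher and 2 lower. The ligand genes AREG and EREG rose, AREG from 412 ± 50.2 to 593 ± 18.6 (log2 0.53 ± 0.076) and EREG by 0.34. The receptor gene ERBB3 fell by 0.40 and the ligand gene NRG4 by 0.30, a call lost without ascites replicate 3. Of 17 tested ERK pathway output genes 3 were higher and 5 lower. SPRED3, FOSL1 and DUSP6 rose by 0.66, 0.30 and 0.12, and the feedback genes SPRY4, SPRY1 and SPRED2 and the factors ETV5 and ETV4 fell by 0.12 to 0.21. The falls numbered 2 without control replicate 1 or ascites replicate 2 and 3 without ascites replicate 3. Of 23 tested immediate early genes 5 were higher, KLF2, IER5, MAFF, IER3 and JUN, by 0.17 to 0.61, and EGR1 was lower, by 0.29. The rises numbered 8 without control replicate 3 and 3 without ascites replicate 2. Of 24 tested YAP and TEAD targets 4 were higher, AMOTL2, TEAD4, CCN1 and AXL, by 0.12 to 0.23, and CCN2, described above, is another gene commonly counted as a YAP target. The YAP and TEAD count was 2 without ascites replicate 1 or 3. Of 12 lysophospholipid receptors and enzymes 1 was lower, SGPP2 by 0.24, a count that is no result about the list.

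Epithelial genes moved both ways. Beside the counts given here, 3.63% of all genes tested were higher and 4.56% lower. CDH1, the E-cadherin gene, had 455, 389 and 429.5 in the controls and 266, 268 and 281 with ascites (log2 -0.64 ± 0.079, adjusted p 7.18e-06). CLDN7, a tight junction claudin, had 490.3, 478 and 461 without and 269, 324 and 313 with ascites (log2 -0.66 ± 0.079). They were the 2 falls among 15 tested epithelial genes, of which 4 rose, KRT8, KRT18, KRT7 (log2 0.18) and CLDN4 (log2 0.14). EPCAM (0.17, adjusted p 0.0696) and OCLN (-0.021) were not called. Of 8 mesenchymal genes 1 rose, SNAI2, from 169 ± 27.9 to 231 ± 22.3 (log2 0.46 ± 0.11), and VIM was at -0.003. Of 15 tested matrix protease and basement membrane genes 4 were lower, MMP10, TIMP3, MMP1 and COL17A1, by 0.25 to 0.61, and 2 were lower without any one of control replicates 1 and 3 and ascites replicates 2 and 3.

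A list of digestive epithelium genes was added after values had been seen, and it includes genes seen to fall, so its count is a description. Of 26 tested, 18 were lower and 0 higher (median log2 change -0.41), beside 4.56% and 3.63% of all genes tested. HNF4A, a master regulator of such cells, had 2417, 2488 and 2514 in the controls and 1984, 2008 and 2001 with ascites (log2 -0.31 ± 0.038). CDH17, an intestinal cadherin, and VIL1, the villin of microvilli, fell by 0.28 and 0.30. ISX, MEP1A, REG4, FCGBP and CYP3A5 fell by 0.62 to 0.81, and CDX2 was not called (-0.12, adjusted p 0.538). Of 10 stem cell and WNT feedback genes, a list also added later, 3 were lower, LGR5 from 234 ± 19.3 to 155 ± 14.3 (log2 -0.59 ± 0.10), DKK1 and RNF43 (log2 -0.20), while AXIN2 was at 0.15 (adjusted p 0.771).

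Metabolic and stress groups showed small changes. Of 34 tested glycolysis and hypoxia genes 8 were higher and 0 lower, led by ALDOA (log2 0.45) and the hexokinases HK2 and HK1, with HK2 going from 3765 ± 44.2 to 4727 ± 206 (log2 0.33 ± 0.037) and HK1 rising by 0.21. SLC2A3, VEGFA, SLC2A1, LDHA and ENO1 rose by 0.12 to 0.24. The count was 5 without control replicate 1 or ascites replicate 1 or 2, and 4 without ascites replicate 3. Among all genes tested 3.63% were higher and 4.56% lower. In the highest of the 4 classes by mean value 318 of 3952 genes were higher. Of 29 tested ATF4 and amino acid genes 5 were higher, with STC2 at 0.31 and the amino acid carriers SLC7A5, SLC3A2 and SLC1A5 at 0.17, 0.17 and 0.16, and ALDH1L2 was lower. DDIT3 rose by 0.35 (adjusted p 0.0395) and lost its call in 10 alternatives. Of 21 unfolded protein response genes 1 rose (SDF2L1, 0.20) and 1 fell (HERPUD1, -0.22), which is near the shares of all genes tested.

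Proliferation genes were near the background of 3.63% higher and 4.56% lower, with 1 rise (UBE2C, 0.22) and 1 fall (MKI67, -0.14) among 43. The rises numbered 5 without control replicate 3. Of 19 BCL2 family and p53 output genes TP53INP1 fell from 145 ± 31 to 79.1 ± 3.28 (log2 -0.85 ± 0.15), BMF fell by 0.34 and PMAIP1 rose by 0.20. Of the 13 mitochondrially encoded genes 3 were higher, MT-ND3, MT-ATP8 and MT-ND4L (log2 0.24, 0.21 and 0.18), and 11 were higher without control replicate 3, the library with the highest mitochondrial share. The 3 nuclear-retained non-coding RNAs were not called.

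**Figure D5:**
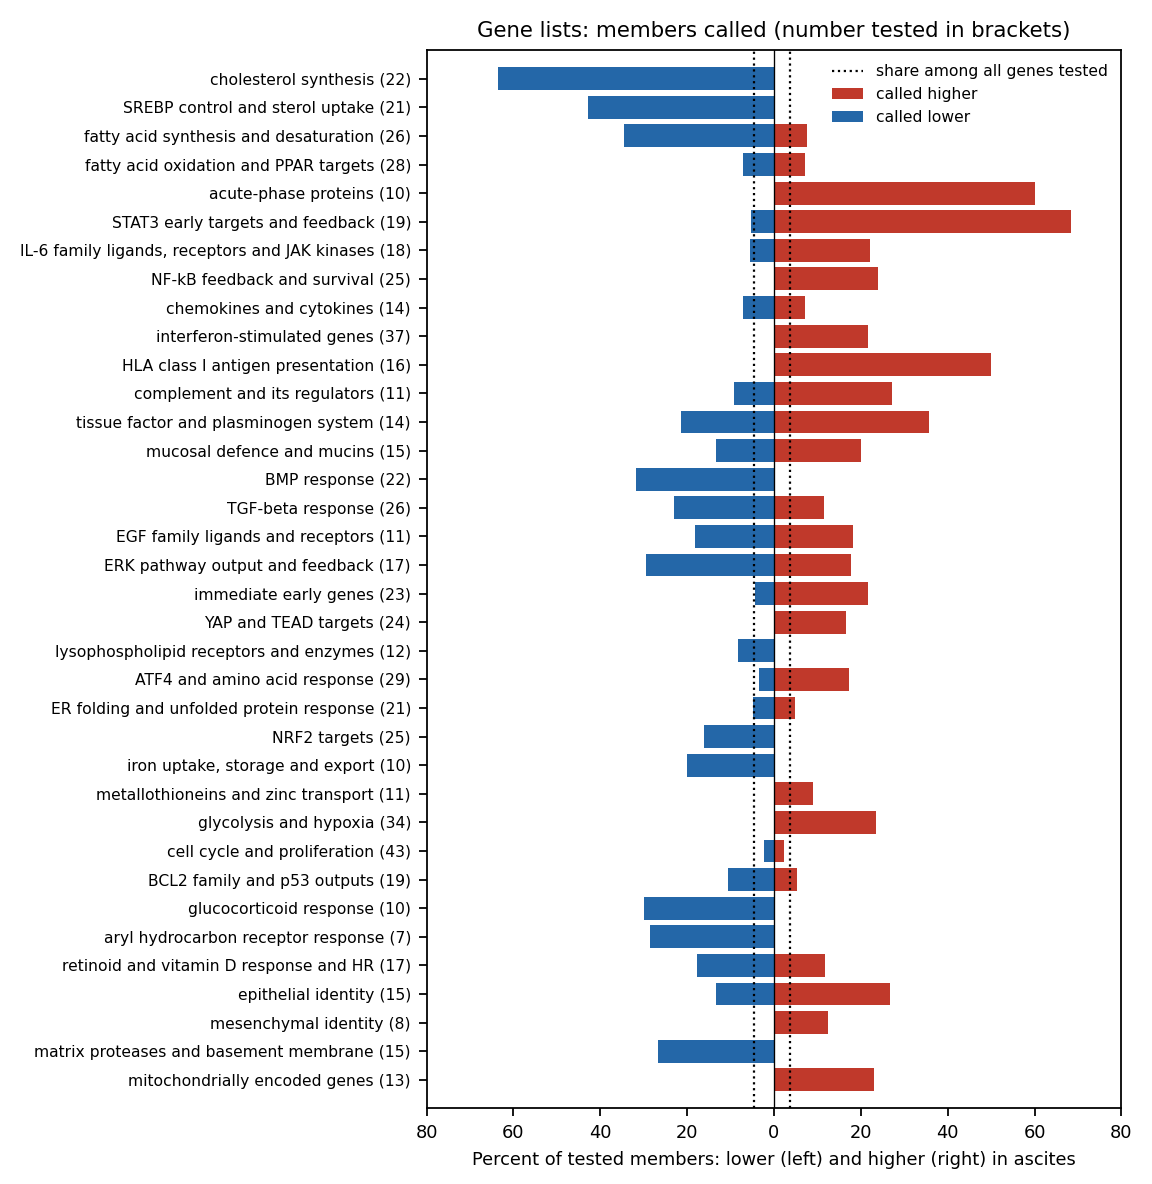
Share of the tested members of each list that was called higher (red, right) or lower (blue, left) in ascites, in percent, for lists with 7 or more tested genes (number tested in brackets). Dotted lines mark 3.63% and 4.56%, the shares of all 15808 genes tested; the lists added after values had been seen are not drawn, and among those drawn the cholesterol list reaches farthest to the left with 14 of 22 and the STAT3 list farthest to the right with 13 of 19.

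Families of large protein complexes were taken whole after values had been seen, and no test was made of them. Beside the 3.63% of all genes tested that were higher, 9 of 81 cytosolic ribosomal protein genes were higher and 0 lower (median log2 change 0.10). Calls were more frequent among abundant genes, and in the highest of the 4 classes by mean value 318 of 3952 genes were higher. The 3.63% is thus a low comparison for abundant families. Examples were RPL24 at 0.15 and RPS3A at 0.18. Control replicate 3, the library that stood apart, was the lowest of the 6 libraries for 73 of the 81 genes. Their summed values were 1859306, 1930455 and 1687822 in the controls and 1900282 to 2006253 with ascites, so the groups overlapped, and without control replicate 3 there were 3 rises and a median of 0.04. Of 78 mitochondrial ribosomal protein genes 11 were higher and 0 lower, such as MRPL20 at 0.20, and 7 were higher without that library. Of 37 proteasome subunits 8 were higher, among them PSMA5 at 0.22 and PSMD2 at 0.13, and 7 without it. Of 37 complex I subunits 1 was higher (NDUFA2, 0.17), and 0 without it. Ribosomal protein genes have many processed copies, so their counts are uncertain.

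Markers of cells that ascites fluid could carry were not called higher. Among all genes tested 3.63% were higher and 4.56% lower. With so few markers tested, the counts are no result about such cells. Of 21 leukocyte markers 4 were analysed here, with summed values of 157 to 203 in the controls and 163 to 201 with ascites, and 0 of 3 tested were called. The 4 mesothelial markers analysed summed to 112 to 141 and 92.0 to 122, with 0 of 2 called. The 6 fibroblast markers summed to 5560 to 6419 in the controls and 5328 to 5478 with ascites, with 1 of 5 tested called, LUM, which was lower (log2 -0.20). PECAM1, the 1 endothelial marker analysed, had a mean of 9.24 and 7.64. No erythroid marker was analysed here.

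The same exposure was compared between lines by the difference of their responses in 1 fit of all 12 libraries. Of the 1295 genes called in CAOV3, 80 (6.18%) had a response that differed in TOV21G, beside 0.545% of all 17616 genes tested there, and 66 of the 80 changed more in CAOV3. These genes were chosen by their call in CAOV3, which favours both a difference and a larger change there, so neither share is a result about the lines. In TOV21G alone, 9 of the 1295 genes were called in the same direction. FGB was already at 4484 in the TOV21G controls and at 4468 with ascites, and the difference in response (TOV21G minus CAOV3) was -3.81 ± 0.19 on the log2 scale (adjusted p 7.04e-07). STAT3 differed by -0.36 (adjusted p 0.021) and SOCS3 by -1.73 (adjusted p 8.37e-05).

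Of the called genes of cholesterol synthesis, SREBP control and fatty acid synthesis SCD had a called difference. INSIG1 had log2 changes of -0.86 in CAOV3 and -0.55 in TOV21G (difference 0.32 ± 0.07, adjusted p 0.0779), and HMGCS1 of -0.38 and -0.25 (difference 0.13 ± 0.055, adjusted p 0.387). For SCD the fall was larger in TOV21G, at -0.97, and the difference was -0.54 ± 0.074 (adjusted p 0.00664). TFRC fell more in CAOV3 (difference 0.33 ± 0.059, adjusted p 0.0264). A difference that misses the threshold does not show that the lines responded alike. The number of genes with a called difference was 84 and 118 without TOV21G control replicate 2 and TOV21G ascites replicate 2, and between 31 and 50 without any other single library.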

How the data were processed

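RNA was measured in 12 libraries, 3 per group, of which the 6 labelled CAOV3 are described. The authors deposited 1 signal value per gene and library, a normalised read count for 19251 Ensembl identifiers. The submitters' processing notes name Trim Galore, cutadapt, STAR, HTSeq and DESeq, with no role or order; versions, genome build, annotation and strandedness are not given in the sources used here. In each library the deposited signal values were whole multiples of 1 step (100% of values, within 5.33e-05 reads over the 12 libraries), so read counts were recovered by the step.

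The test was limma 3.58.1 in R 4.3.3 with a trended variance prior on log2(value + 1), on the 6 libraries alone, for genes with a value of at least 10 in 3 libraries. P-values are two-sided and adjusted over all 15808 genes by Benjamini-Hochberg, with calls at an adjusted p under 0.05. The difference between lines was an interaction term in 1 fit of 12 libraries (17616 genes). edgeR 4.0.16 and DESeq2 1.42.0 on recovered counts, other scalings, filters and pseudocounts, a replicate block and leaving out each library were alternatives. The fit was tested on simulated data.

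Named genes were, per direction, the 12 called genes with the largest change among those with a mean of at least 50 in the higher group and no overlap between libraries, the 4 most abundant called genes, and members of the 43 gene lists (881 symbols, of which 705 were tested). A few named or listed genes are counted but not reported here by name. Members and lists were chosen with earlier results of these data known. The digestive, WNT, ribosomal, complex I and proteasome lists were added after values had been seen. Symbols came from a table of gene names (17030 identifiers) and GENCODE 29 (2193 more), and positions from GENCODE 29 on GRCh38, which may not be the authors' build. Promoters are from RefSeq (GRCh38.p14). Of the 1295 called genes 416 overlap another gene on the same strand and 743 on the other strand, so their counts are uncertain.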

Additional observations from a re-analysis of the deposited data

Results flagged for a closer look

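The responses of the lines differed by the interaction test for 80 of the genes called in CAOV3. Among the 12 largest rises and falls in CAOV3, the difference in response (TOV21G minus CAOV3, log2 scale) was -5.96 for DMBT1, -3.81 for FGB, -3.77 for NNMT and -3.06 for FGA. It was -2.61 for CYP24A1, -1.73 for SOCS3, -1.71 for JAK3, -1.19 for MUC1 and -1.22 for APOL1. In the TOV21G controls FGB, NNMT and FGA had mean values of 4484, 3563 and 468, above the 83, 37.8 and 35.2 of the CAOV3 controls, while CYP24A1 was at 0. In the TOV21G ascites libraries the same 3 genes were at 4468, 3489 and 468, and CYP24A1 was again at 0. Adjusted p-values of these differences, from limma, ran from 7.04e-07 for FGB to 0.0093 for APOL1. The genes were chosen by their call and change in CAOV3, and that change enters the difference. Large differences and small adjusted p-values were thus favoured, and the count of 80 is no result about the lines.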

How the results depend on the processing

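Leaving out 1 CAOV3 library at a time gave 253 to 821 rises and 475 to 757 falls, with the fewest of both without ascites replicate 3. Leaving out 1 of all 12 libraries gave 31 to 118 genes with a difference between lines. Counts of rises and falls stayed within 1.5 times of 574 and 721 under the other pseudocounts, filters, scalings and both count tests, with DESeq2 lowest among the tools at 452 and 524. The exceptions were 864 rises once the trend with transcript length and GC content was removed, and 112 rises and 193 falls when all 12 libraries entered 1 fit, of which 103 and 177 were among the main calls. The edgeR count of genes with a difference between lines was 121 in place of 80. The labels share replicate numbers between groups, but deviations of CAOV3 libraries with the same number correlated at -0.0524, 0.132 and 0.0532, so the numbers were not taken as pairs. A fit with the replicate number as a block gave 598 rises, 734 falls and 9 genes with a difference between lines; the cause was not tested. For 212 named or listed genes, 3206 of 3575 values under the alternatives kept direction and call, 369 kept direction and lost the call, and 0 reversed. Calls of the named genes DYNC1H1, PNPLA3, NFKB2 and NFKBIB were lost in 8 to 10 alternatives, and those of ELOVL1, TGFBI, HIF1A, NFKBIZ, TAP1, PSME1, TAGLN, ETV4, EGR1, LDHA, CLDN4, MMP10 and COL17A1 in 6 or 7. DESeq2 gave no adjusted p for 66 of the 1295 called genes and called 958 of the other 1229. At 26697609 reads or more per library, 46 called genes had a mean under 50, where the spread between libraries limits what can be called.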
